A study of Homo sapiens with 6 samples.

Results

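NF-kB is a family of dimeric transcription factors built from 5 subunits and held in the cytoplasm by IkB proteins. The messenger RNAs of those subunits and of their feedback inhibitors were followed in the NOMO-1 line, human leukaemia cells of the monocytic branch of acute myeloid leukaemia. The 10 genes were taken by symbol from a table of 15059 genes, and all of them had a row and passed the filter on low values, with 12734 genes tested in all. They were NFKB1, NFKB2, REL, RELA and RELB for the subunits, NFKBIA, NFKBIB and NFKBIE for the IkB inhibitors, and TNFAIP3 and TNIP1 for the ubiquitin-dependent brake on the pathway.

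Total RNA freed of ribosomal RNA was sequenced in 3 groups of 2 libraries each. Knockout cells (sgMETTL16+EV) carried an empty overexpression vector and a guide RNA against METTL16, rescue cells (sgMETTL16+OE-METTL16) were made to overexpress METTL16 and then received that guide, and control cells (sgNS+EV) carried the empty vector and the non-targeting guide. All groups passed through viral transduction and 1 to 2 weeks of puromycin (2 µg/ml), and no other treatment was given. METTL16 is an RNA methyltransferase whose known substrates include the MAT2A messenger RNA. Whether the cells were clones or pools, and whether replicates were separate cultures, is not stated in the sources used here. The p-values therefore cover the spread among 6 libraries, which may be technical.

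In resting cells IkB proteins cover the nuclear localisation signals of the dimers. Signals from Toll-like, tumour necrosis factor and interleukin receptors activate the IkB kinase complex, which marks IkB for degradation and frees the dimers to enter the nucleus. Several of the genes switched on by NF-kB, among them NFKBIA and TNFAIP3, encode proteins that shut the pathway off again, and in monocytes and macrophages the pathway is known for driving inflammatory cytokines and survival genes. Messenger RNA levels, which are all that was measured here, do not show whether dimers were in the nucleus.

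The unit throughout is the RSEM abundance of a gene, called the signal, and changes are on the scale of log2(signal + 1). Signal summed over all genes was between 597160 and 681928 per library, and a signal of 1 was estimated, from the steps between low values of short RNAs, to stand for 47.3 to 52.4 reads on a transcript of 2000 nt. RELB, the lowest member, then rested on about 118 to 129 reads per library if its transcript has that length, a counting error of 8.81% to 9.22%. Control replicate 2 lay below the other libraries, with a median deviation of -0.10 on the log2 scale where the other 5 ranged from 0.0024 to 0.040. METTL16 had a signal of 6.05 and 5.83 in knockout libraries, 12.3 and 12.1 in rescue libraries, and 9.89 and 9.63 in control libraries. Its change in knockout against control was -0.63 (SE 0.082, limma, adjusted p = 4.76e-05), and MAT2A, at 77.6 and 78.1 in knockout libraries, 134 and 138 in rescue libraries, and 140 and 132 in control libraries, was at -0.80 (adjusted p = 2e-07). Both genes thus go with the labels, although an edit need not lower the transcript it hits.

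The start-site regions of these genes are shown because NF-kB members are themselves known targets of NF-kB, and because the members below moved in different degrees. RefSeq (GRCh38.p14) gave the 250 bases before a transcript start for 8 members (all but RELB and NFKBIE), in 14 windows. The consensus kB motif of 10 letters was searched on both strands, overlapping matches included. It lay in at least 1 window of 7 of the 8 members and in 8 of the 14 windows, against 5.21% of all 35116 windows and 6.28% of all symbols in that table. Capitals mark the matches, and overlapping matches run together.
NFKB2, chr10:102394328-102394577, plus strand: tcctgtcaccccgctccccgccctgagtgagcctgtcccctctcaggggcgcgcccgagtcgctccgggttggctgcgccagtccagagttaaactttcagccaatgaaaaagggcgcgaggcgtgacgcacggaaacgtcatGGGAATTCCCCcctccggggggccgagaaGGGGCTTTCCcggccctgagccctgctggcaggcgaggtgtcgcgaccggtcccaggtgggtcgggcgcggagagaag
NFKBIA, chr14:35404750-35404999, minus strand: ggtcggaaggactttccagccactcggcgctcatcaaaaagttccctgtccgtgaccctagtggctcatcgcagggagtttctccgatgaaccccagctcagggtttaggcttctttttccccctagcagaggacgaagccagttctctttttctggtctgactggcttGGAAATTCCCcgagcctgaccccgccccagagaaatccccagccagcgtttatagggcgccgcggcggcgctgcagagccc
RELA, chr11:65662917-65663166, minus strand: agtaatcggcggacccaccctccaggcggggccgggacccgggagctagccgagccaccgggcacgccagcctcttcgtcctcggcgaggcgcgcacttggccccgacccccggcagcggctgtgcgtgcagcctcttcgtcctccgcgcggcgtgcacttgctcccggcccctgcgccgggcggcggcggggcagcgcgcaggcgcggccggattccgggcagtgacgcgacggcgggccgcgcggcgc
NFKB1, chr4:102501109-102501358, plus strand: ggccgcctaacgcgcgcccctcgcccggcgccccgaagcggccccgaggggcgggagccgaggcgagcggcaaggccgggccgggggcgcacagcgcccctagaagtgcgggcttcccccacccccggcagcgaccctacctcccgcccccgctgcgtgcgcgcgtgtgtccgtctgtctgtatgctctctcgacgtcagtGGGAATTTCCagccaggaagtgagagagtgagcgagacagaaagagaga

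NFKB2 and NFKBIA, which hold matches in these windows, were among the genes that rose in knockout, and so was RELA, where these letters were found in neither of its 2 windows. The NFKB2 window next to its annotated gene start (chr10:102393860-102394109) held no match. NFKB1, NFKBIB and TNIP1 each had a window without a match as well. NFKB1 holds the run GGGAATTTCC, and REL holds GGGAAATTCCC, yet neither passed the test in knockout. Matches were also present for TNFAIP3 (GGAAAGTCCC and GGAAATCCCC) and TNIP1 (GGGACTTTCC), which rose, and for NFKBIB (GGGAATTTCCC), which did not pass the test. The letters were thus present in members on both sides of the threshold, and a match or its lack says nothing of binding in these cells.

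Of the 10 members, 6 rose in knockout against control cells at an adjusted p below 0.05 and none fell, where 26.2% of all genes tested rose and 13.5% fell (limma). None was lower at an unadjusted p below 0.05 either. The 6 were RELA and NFKB2 among the subunits, NFKBIA and NFKBIE among the IkB inhibitors, and both TNFAIP3 and TNIP1. NFKB1, REL, RELB and NFKBIB did not pass. For 9 of the 10, all but REL, both knockout libraries lay above both control libraries, as they did for 43.4% of all genes tested. The median change over the 10 members was 0.33, against 0.067 over all genes tested. After scaling each library by its median ratio, the share of all calls that were rises was 49.3%, against 65.9% with the values as deposited, and 6 members rose under that scaling too. In bulk RNA a change in the share of cells that express a gene and a change in RNA per cell cannot be told apart.

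RELA (chromosome 11, 65653596 to 65663094, minus strand, GRCh38), the subunit that carries the main activation domain of the classical dimer, had a signal of 21.4 and 21.1 in knockout libraries, 16.8 and 15.6 in rescue libraries, and 15.0 and 13.4 in control libraries. Both knockout libraries lay above all 4 others, and both rescue libraries lay above both control libraries. The knockout mean of 21.2 ± 0.215 (SD, n = 2) was 1.49 times the control mean of 14.2 ± 1.16, a log2 change of 0.55 (SE 0.078, adjusted p = 0.000104). NFKB2 (chromosome 10, 102394110 to 102402529, plus strand) encodes a precursor that both restrains RELB and, once processed, forms the DNA-binding partner of the alternative pathway. Its signal was 10.3 and 10.4 in knockout libraries, 7.42 and 6.96 in rescue libraries, and 6.71 and 6.65 in control libraries. The knockout libraries stood well apart from the other groups, at 1.54 times the control mean (log2 0.56, SE 0.085, adjusted p = 0.000175).

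The other 3 subunits varied less. NFKB1 (chromosome 4, 102501329 to 102617302, plus strand), whose precursor gives the DNA-binding partner of RELA, had a signal of 16.4 and 17.0 in knockout libraries, 15.9 and 16.8 in rescue libraries, and 15.7 and 13.9 in control libraries. Knockout and rescue libraries overlapped, and both lay above control (knockout against control, log2 0.17, 95% interval -0.0038 to 0.33, adjusted p = 0.111). REL (chromosome 2, 60881521 to 60931610, plus strand), the subunit best known from lymphocytes, had a signal of 16.5 and 17.8 in knockout libraries, 15.8 and 16.6 in rescue libraries, and 16.6 and 14.8 in control libraries. All 3 groups overlapped, with a change of 0.12 in knockout against control (95% interval -0.051 to 0.29, adjusted p = 0.253). REL shares 5702 exonic bases on its own strand with AC010733.2 in GENCODE release 29, so the division of reads between them is uncertain. RELB (chromosome 19, 45001430 to 45038198, plus strand), the activating partner of processed NFKB2, was the least abundant member at 2.56 and 2.58 in knockout libraries, 2.60 and 2.46 in rescue libraries, and 2.33 and 2.24 in control libraries. Its control libraries were the lowest, but the difference in knockout did not pass the test (log2 0.12, 95% interval -0.096 to 0.33, adjusted p = 0.369).

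**Figure D1:**
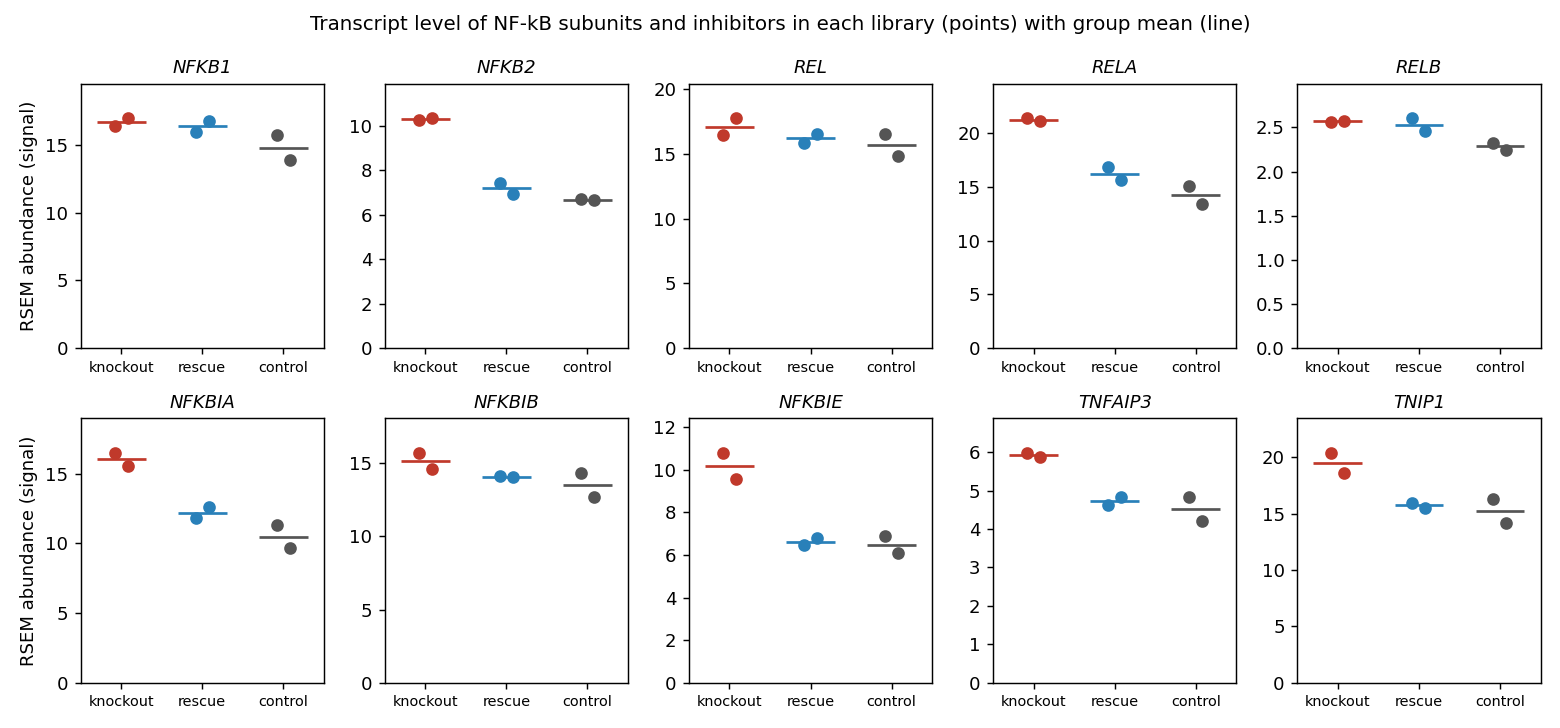
RSEM abundance (signal, vertical axes from 0) of each of the 10 genes in the 2 knockout, 2 rescue and 2 control libraries (points), with a line at each group mean. RELA, NFKB2, NFKBIA, NFKBIB, NFKBIE, TNFAIP3 and TNIP1 were highest in both knockout libraries, with RELA at 21.4 and 21.1 there against 15.0 and 13.4 in control libraries, while the groups of NFKB1, REL and RELB overlapped between knockout and rescue.

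Among the inhibitors, NFKBIA (chromosome 14, 35401511 to 35404749, minus strand) encodes IkB-alpha, the fast-acting inhibitor that NF-kB itself induces. Its signal was 16.5 and 15.6 in knockout libraries, 11.8 and 12.6 in rescue libraries, and 11.3 and 9.67 in control libraries. The groups did not overlap and ran in the order knockout, rescue, control. The knockout mean was 1.53 times the control mean (log2 0.57, SE 0.087, adjusted p = 0.000176). NFKBIE (chromosome 6, 44258166 to 44265788, minus strand) encodes IkB-epsilon, which is resynthesised more slowly than IkB-alpha. It had a signal of 10.8 and 9.58 in knockout libraries, 6.46 and 6.80 in rescue libraries, and 6.88 and 6.09 in control libraries. Rescue and control overlapped, and both knockout libraries lay above them, at 1.57 times the control mean (log2 0.58, SE 0.094, adjusted p = 0.000297).

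NFKBIB (chromosome 19, 38899700 to 38908893, plus strand) encodes IkB-beta, which is not a typical NF-kB target. Its signal was 15.7 and 14.6 in knockout libraries, 14.1 and 14.1 in rescue libraries, and 14.3 and 12.7 in control libraries. Knockout libraries were the highest by a narrow margin, and the change of 0.16 against control did not pass the test (95% interval -0.019 to 0.33, adjusted p = 0.144). NFKBIB overlaps SIRT2 on the opposite strand by 40 exonic bases, and whether the counting used strand is not stated in the sources used here, although the library kit keeps it. Antisense overlaps of 95 exonic bases for TNFAIP3 (with AL357060.1) and 9 for RELA (with AP001362.2) carry the same limit.

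TNFAIP3 (chromosome 6, 137867188 to 137883312, plus strand), a ubiquitin-editing enzyme that dismantles signalling complexes upstream of the IkB kinases, had a signal of 5.98 and 5.86 in knockout libraries, 4.62 and 4.84 in rescue libraries, and 4.83 and 4.21 in control libraries. Knockout libraries lay above the other 4, which overlapped, and their mean was 1.31 times the control mean (log2 0.33, SE 0.097, adjusted p = 0.0152). TNIP1 (chromosome 5, 151029945 to 151093577, minus strand), a ubiquitin-binding protein that works with TNFAIP3, had a signal of 20.4 and 18.6 in knockout libraries, 16.0 and 15.5 in rescue libraries, and 16.3 and 14.2 in control libraries. Its knockout mean was 1.28 times the control mean (log2 0.33, SE 0.082, adjusted p = 0.00554). Without knockout replicate 1 neither passed, with a change of 0.32 (adjusted p = 0.0945) for TNFAIP3 and 0.27 (adjusted p = 0.0663) for TNIP1. Without knockout replicate 2 TNFAIP3 was at 0.34 (adjusted p = 0.0639), and TNIP1 still passed. Without control replicate 1, NFKB1 (log2 0.25, adjusted p = 0.0192) and NFKBIB (0.24, adjusted p = 0.0284) passed as well.

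Rescue against knockout asked whether the differences were smaller in cells that overexpressed METTL16. The 6 genes that had risen in knockout were lower in rescue, and no member was higher, where 15.9% of all genes tested fell and 15.6% rose (limma). None was higher at an unadjusted p below 0.05. Both libraries of rescue lay below both of knockout for 7 members, those 6 and NFKBIB, as they did for 38.1% of all genes tested. The comparison shares its knockout libraries with the one above, so a gene that is high in knockout enters both. NFKBIE fell by 0.55 on the log2 scale (SE 0.094, adjusted p = 0.000699) and NFKB2 fell by 0.47 (SE 0.085, adjusted p = 0.00102). RELA fell by 0.37 (SE 0.078, adjusted p = 0.00284), as did NFKBIA, by 0.37 (SE 0.087, adjusted p = 0.00573). TNIP1 was at -0.29 (adjusted p = 0.0162) and TNFAIP3 at -0.27 (adjusted p = 0.0441). The median over the 10 members was -0.28, against -0.012 over all genes tested.

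With 1 library fewer, some of these calls no longer passed while the changes kept their direction. NFKBIA was at -0.32 (adjusted p = 0.0504) without rescue replicate 1. TNIP1 was at -0.225 (adjusted p = 0.166) without knockout replicate 1 and at -0.27 (adjusted p = 0.0967) without rescue replicate 2. TNFAIP3 ran from -0.30 to -0.25 without any 1 of the 4 libraries compared, and its adjusted p was 0.211 without knockout replicate 1, 0.156 without knockout replicate 2, 0.237 without rescue replicate 1 and 0.136 without rescue replicate 2, and 0.0598 with no filter on low values. NFKB1 (-0.027, adjusted p = 0.823), REL (-0.073, adjusted p = 0.514), RELB (-0.016, adjusted p = 0.920) and NFKBIB (-0.097, adjusted p = 0.390) did not pass. Their 95% intervals reached down to -0.20, -0.24, -0.23 and -0.27 in that order, so falls of that size could not be told from no change.

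Between rescue and control cells 0 of the 10 members passed the test, where 0.283% of all genes tested did (limma). At an unadjusted p below 0.05 there were 2, RELA and NFKBIA, both higher in rescue. How many of all genes tested did so was not counted. The median change over all genes tested was 0.061, and 0.0014 after median ratio scaling. RELA was 0.18 higher (95% interval 0.013 to 0.35, adjusted p = 0.403), and NFKBIA was 0.21 higher (95% interval 0.020 to 0.39, adjusted p = 0.391). Both rescue libraries lay above both control libraries for 5 members (NFKB1, NFKB2, RELA, RELB and NFKBIA), a pattern that 34.6% of all genes tested shared. On the log2 scale the rescue libraries kept 5.03% of the knockout difference for NFKBIE, 13.8% for TNIP1, 16.5% for NFKB2, 16.6% for TNFAIP3, 32.9% for RELA and 36.0% for NFKBIA. These shares have the control libraries in both terms, carry no test and are unstable where small. The change in rescue against control ran from -0.0472 to 0.106 for NFKBIE, from -0.0486 to 0.141 for TNIP1 and from -0.0272 to 0.136 for TNFAIP3 when 1 library was left out, and all 3 were below 0 after median ratio scaling.

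**Figure D2:**
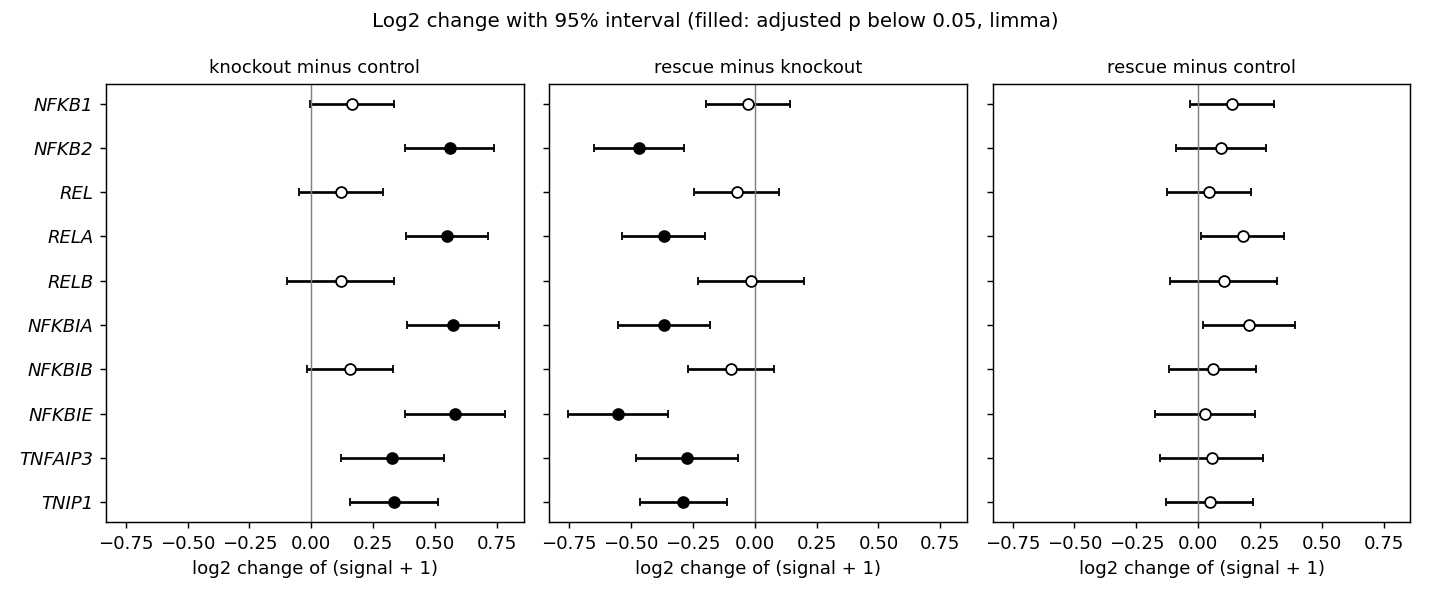
Log2 change of (signal + 1) with its 95% interval for the 10 genes, for knockout against control (left), rescue against knockout (middle) and rescue against control (right), with filled points for an adjusted p below 0.05 by limma. In the left panel 6 points are filled, from 0.33 to 0.58, the same 6 genes are filled on the negative side in the middle panel, and none is filled in the right panel.

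Proportions between members can be compared because RSEM abundance is scaled to transcript length. RELA per NFKB1, the classical pair, stood at 1.30 and 1.24 in knockout libraries, 1.06 and 0.933 in rescue libraries, and 0.958 and 0.966 in control libraries. RELA exceeded NFKB1 in both knockout libraries and lay on either side of equality in the other 4. NFKB2 per RELB, the alternative pair, was 4.01 and 4.01 in knockout libraries, 2.85 and 2.83 in rescue libraries, and 2.88 and 2.96 in control libraries. An exact two-sided permutation test of RELA per NFKB1 in knockout against control gave p = 0.333, the smallest that this test allows with 2 against 2 libraries, so it could not have passed the threshold. The ratios are given as a description.

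The ratio of NFKBIA to its target RELA differed less. It was 0.772 and 0.740 in knockout libraries, 0.702 and 0.808 in rescue libraries, and 0.751 and 0.722 in control libraries, and all groups overlapped. Summed over the 3 IkB genes and divided by the sum over the 5 subunits, the ratio was 0.641 and 0.578 in knockout libraries, 0.552 and 0.573 in rescue libraries, and 0.577 and 0.557 in control libraries. Knockout replicate 2 was almost level with control replicate 1. Within the IkB genes, NFKBIB made up 36.5% and 36.6% of the signal in knockout libraries, 43.5% and 42.0% in rescue libraries, and 44.1% and 44.5% in control libraries. NFKBIE made up 25.1% and 24.1% in knockout libraries, 20.0% and 20.3% in rescue libraries, and 21.2% and 21.4% in control libraries.

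**Figure D3:**
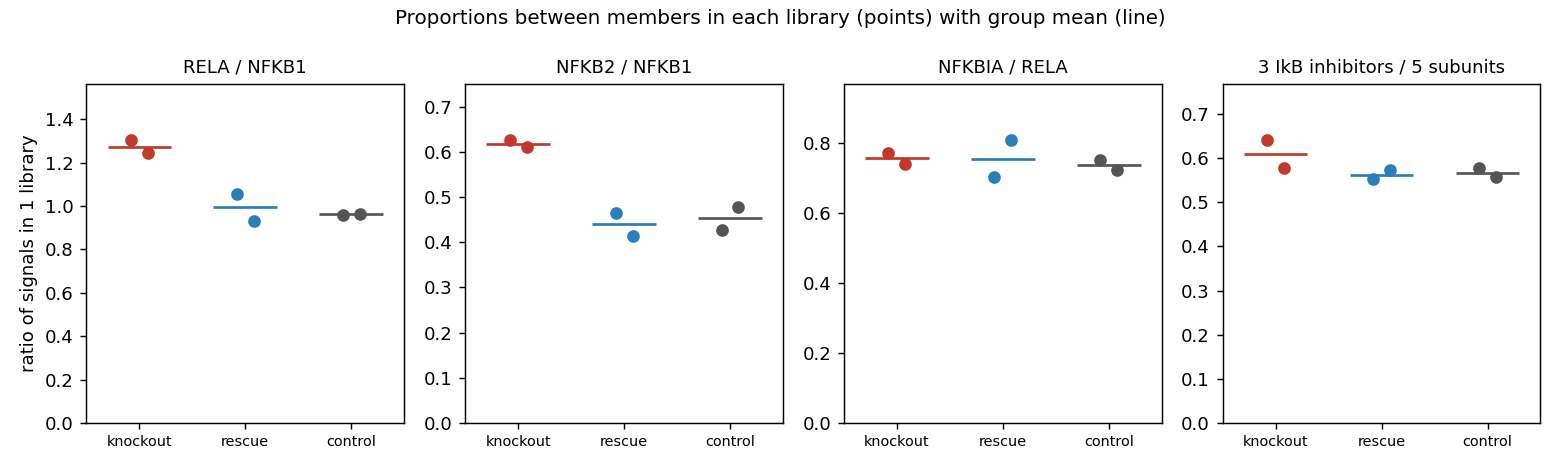
Ratios of signal within each library (points; lines are group means; axes from 0) for RELA to NFKB1, NFKB2 to NFKB1, NFKBIA to RELA, and the summed 3 IkB genes to the summed 5 subunits. RELA to NFKB1 was 1.30 and 1.24 in knockout libraries against 0.958 and 0.966 in control libraries, while NFKBIA to RELA overlapped between groups.

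The order of levels differed between groups. In knockout cells RELA was the most abundant member at 21.2, followed by TNIP1 at 19.5, and both were apart from their neighbours in that order. REL, NFKB1, NFKBIA and NFKBIB came next, from 17.1 to 15.1, each overlapping its neighbour. In rescue cells NFKB1, RELA, REL and TNIP1 lay between 16.4 and 15.7 and overlapped in turn. In control cells REL, TNIP1, NFKB1, RELA and NFKBIB ran from 15.7 to 13.5, with ranges that overlapped in turn. Their order was the same in both control libraries, with lower values throughout in replicate 2. NFKBIA, NFKB2 with NFKBIE, TNFAIP3 and RELB followed below in control cells, at 10.5, 6.68, 6.49, 4.52 and 2.29.

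Other genes of the pathway were counted from lists by role, to be read against the 26.2% of all genes tested that rose and the 13.5% that fell in knockout, and the 15.9% that fell and 15.6% that rose in rescue against knockout. The 3 atypical IkB proteins, which act in the nucleus, all rose in knockout and all fell in rescue against knockout (medians 0.55 and -0.53). BCL3 had a signal of 2.59 and 2.65 in knockout libraries, 1.37 and 1.66 in rescue libraries, and 1.49 and 1.45 in control libraries (knockout against control, log2 0.55, adjusted p = 0.00114). NFKBID had 11.1 and 9.55 in knockout libraries, 6.87 and 6.63 in rescue libraries, and 6.83 and 5.51 in control libraries (log2 0.66, adjusted p = 0.000252). NFKBIZ had 1.98 and 1.91 in knockout libraries, 1.22 and 1.32 in rescue libraries, and 1.34 and 1.07 in control libraries (log2 0.42, adjusted p = 0.00801), a call that was lost without control replicate 2 (adjusted p = 0.052). Its fall in rescue was lost without knockout replicate 1 (adjusted p = 0.0919), without knockout replicate 2 (0.0584) and without rescue replicate 1 (0.0924). Rescue and control overlapped for all 3.

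Of 10 tested genes for the IkB kinases and the kinases and TAB proteins above them, 2 rose in knockout (20%, against 26.2% of all genes). None fell, and the median was 0.15. In rescue against knockout none passed the test, and 3 (CHUK, IKBKB and TAB1) were lower at an unadjusted p below 0.05. How many of all genes were lower at that unadjusted threshold was not counted. The calls of CHUK and TAB1 depended on the setting (limma). CHUK fell with a mean of at least 5 (adjusted p = 0.0408), median ratio scaling (0.00907), quantile normalization (0.00797) and only the 2 groups compared (0.0252). TAB1 fell with median ratio scaling (adjusted p = 0.0355), no trend (0.0462) and only the 2 groups compared (0.0398). Without control replicate 1, or without control replicate 2, the changes were -0.203 for CHUK and -0.233 for TAB1. CHUK, the IkB kinase of the alternative pathway, averaged 18.2 ± 0.269 in knockout and 15.0 ± 1.22 in control libraries (SD, n = 2 each, log2 0.27, adjusted p = 0.0146). Its call was lost without knockout replicate 1 (adjusted p = 0.0872) and without control replicate 2 (0.0609). TAB1, which activates the kinase MAP3K7, was at 0.25 (adjusted p = 0.0426), and the adjusted p was above 0.05 in 11 of the 14 alternatives. None of the 10 was lower in knockout at an unadjusted p below 0.05, although 1 fell after median ratio scaling. Under that scaling 3225 of all 12734 genes tested fell, against 1723 with the values as deposited.

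Of 35 receptors and adaptors listed, 30 had a row and 27 were tested. TLR1, TLR6, TLR8, CD14 and CD40 had no row. Of the 27 tested, 11 rose (40.7%, against 26.2% of all genes) and 5 fell (18.5%, against 13.5%) in knockout, with a median of 0.18. In rescue against knockout 7 fell (25.9%, against 15.9%) and 5 rose (18.5%, against 15.6%). TNFRSF1A, the main receptor for tumour necrosis factor, averaged 60.3 ± 2.31 in knockout and 42.0 ± 1.85 in control libraries (SD, n = 2 each, log2 0.51, adjusted p = 2.78e-05). IRAK2, a kinase-like adaptor of Toll-like receptors, was at 0.58 (adjusted p = 0.000213), and BCL10, an adaptor of the CARD proteins, was also at 0.58 (adjusted p = 0.000153). IRAK1, a kinase of the same receptors, fell to 106.5 ± 6.85 in knockout, against 159 ± 7.52 in control libraries (log2 -0.58, adjusted p = 6.98e-06). The numbers of rises and falls in this list changed when 1 library was left out, and so did those over all genes tested.

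Ubiquitin ligases, deubiquitinases and their partners had 7 of 14 risen (50%, against 26.2% of all genes) and 1 fallen (7.14%, against 13.5%) in knockout, with a median of 0.20. In rescue against knockout 4 fell (28.6%, against 15.9%) and 1 rose (7.14%, against 15.6%). CYLD, a deubiquitinase that restrains the pathway, averaged 8.15 ± 0.221 in knockout and 5.38 ± 0.931 in control libraries (log2 0.53, adjusted p = 0.00128). TNIP2, a relative of TNIP1, was at 0.47 (adjusted p = 0.00157), and ITCH, a ligase that works with TNFAIP3, was at 0.33 (adjusted p = 0.00254). OTULIN, which removes linear ubiquitin chains, was the member that fell (log2 -0.34, adjusted p = 0.00877). Leaving out 1 library changed the numbers of rises in knockout and of falls in rescue, here as over all genes tested.

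Of 32 inducible targets listed, 23 had a row and 18 were tested. TNF, IL6, CXCL1, CXCL3, CXCL10, CCL4, VCAM1, CSF1 and MMP9 had no row. Of the 18 tested, 9 rose (50%, against 26.2% of all genes) and 3 fell (16.7%, against 13.5%) in knockout, with a median of 0.20. In rescue against knockout 5 fell (27.8%, against 15.9%) and 4 rose (22.2%, against 15.6%). IRF1, a transcription factor of the interferon response, averaged 7.79 ± 0.135 in knockout and 4.41 ± 0.0358 in control libraries (log2 0.70, adjusted p = 4.35e-05), and JUNB, a subunit of AP-1, was at 0.51 (adjusted p = 6.04e-05). BCL2A1, an anti-apoptotic protein, fell to 98.8 ± 1.96 in knockout, against 178 ± 4.63 in control libraries (log2 -0.84, adjusted p = 8.86e-08). CCL5, a chemokine, was at -0.39 (adjusted p = 0.000208). After median ratio scaling 5 of these targets fell in knockout, where 3225 of all 12734 genes tested fell, against 1723 with the values as deposited. For these targets too, the numbers of falls and rises in rescue changed when 1 library was left out, as they did over all genes tested. Between rescue and control none of the genes of these 5 lists passed the test. At an unadjusted p below 0.05, 5 receptors and adaptors, 1 ubiquitin-related gene and 5 targets were higher in rescue. The share of all genes past that unadjusted threshold was not counted, so these numbers cannot be read as an excess. Genes in general leaned the same way, with a median over all genes tested of 0.061, and of 0.0014 after median ratio scaling.

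**Figure D4:**
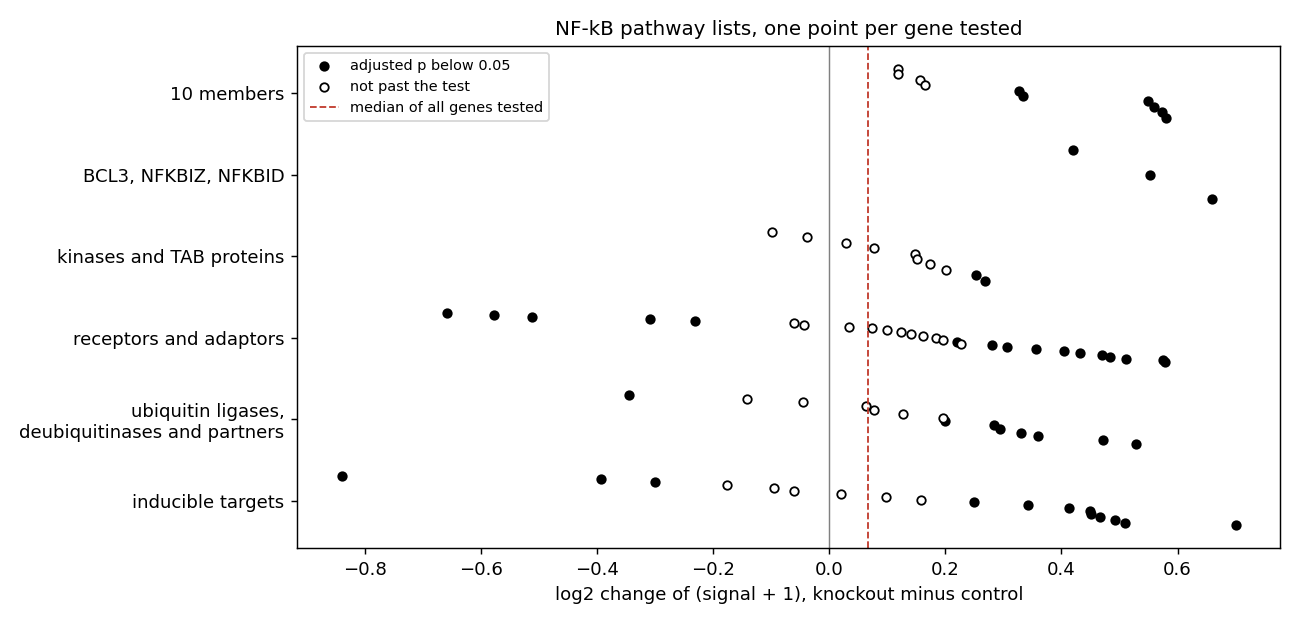
Log2 change of (signal + 1) in knockout minus control for every gene tested in the 10-member set and 5 further pathway lists, 1 point per gene, filled for an adjusted p below 0.05, with a dashed line at the median of all genes tested (0.067). The 10 members and the 3 atypical IkB genes lie to the right of that line, while receptors, adaptors and inducible targets spread to both sides, from BCL2A1 at -0.84 to IRF1 at 0.70.

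The profiles closest to those of the 3 members with the largest changes were found by Euclidean distance over the 6 libraries, after centring log2(signal + 1) for each gene. For NFKBIE the nearest genes were IRAK2 (distance 0.0622), DCAF4L1 (0.0695) and CNTNAP1 (0.0778), where the median distance of all tested genes was 0.645. For NFKBIA they were DNASE1L1 (0.0429), TPRG1L (0.0577) and GPKOW (0.0580), with a median of 0.561. For NFKB2 they were LIN37 (0.0591), COL9A2 (0.0596) and TCHH (0.0615), with a median of 0.592. Among members, RELA was the closest to NFKBIA (0.146) and to NFKB2 (0.151), and NFKB2 was the closest to NFKBIE (0.205). The 6 libraries fall into groups, so the likeness describes these libraries alone.

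Of 9 myeloid markers tested, 7 rose in knockout (77.8%, against 26.2% of all genes), and in rescue against knockout 6 fell (66.7%, against 15.9%) and 1, CD4, rose. SPI1, a transcription factor that defines myeloid cells, ranged from 35.4 to 51.7 over the 6 libraries, as the cell line's label would have it. The summed signal of the 9 myeloid markers was 443 and 436 in knockout libraries, 359 and 365 in rescue libraries, and 314 and 292 in control libraries. In knockout against control, ITGAM (-0.095, limma, adjusted p = 0.491) and CD4 (-0.077, adjusted p = 0.339) were lower and did not pass. CD68, a lysosomal protein of macrophages, was at 0.97 (adjusted p = 2.83e-07), and LYZ, which encodes lysozyme, at 1.42 (adjusted p = 1.97e-09). Unlike any member, LYZ also passed the test between rescue and control, at 55.0 and 57.8 in rescue libraries against 30.9 and 31.1 in control libraries (log2 0.85, adjusted p = 7.45e-06). Summed lymphoid markers, 4 genes of which 3 were tested, stood at 160 and 154 in knockout libraries, 129 and 128 in rescue libraries, and 131 and 114 in control libraries. CD2 and NKG7 rose in knockout, and nearly all of the sum was NKG7, at 151 ± 4.70 in knockout, 126 ± 0.846 in rescue and 120 ± 11.3 in control libraries (SD, n = 2 each). No marker analysed was at 0 in any library. Erythroid markers summed to at most 2.49 and epithelial markers to at most 1.34 per library. The part of the myeloid and lymphoid markers in the changes of the NF-kB genes was not tested.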

How the data were processed

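The 6 libraries of NOMO-1 cells were grouped by their labels. The authors deposited 1 table of RSEM abundances, used here as a signal per gene, with no value of 0. The submitters' processing notes name STAR, RSEM and GRCh38, with no versions, and whether the abundance is TPM or FPKM is not given in the sources used here, nor are read totals. Depth was estimated from transcripts of up to 400 nt. Their signal times length (less 50 nt) fell within 0.15 of a whole read for 70.8% to 84.0% of values below 4.5 reads. Chance gives 30% for a fixed step, and more for one chosen to match, as here. The step (signal times nt) was searched only from 30 to 60, so a step outside that range could not be found.

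Tested genes (12734) had a signal of 1 or more in 2 or more libraries, which dropped 2325. The test was limma (version 3.58.1, R 4.3.3) with a trend on log2(signal + 1), all 6 libraries in a single model, with 3 residual and 11 prior degrees of freedom. Adjusted p is two-sided, by Benjamini-Hochberg over every tested gene, and 0.05 was the threshold. The pseudocount of 1 shrinks changes of low genes. The procedure was also run on simulated data with few changed genes and independent normal noise. That setting differs from these data, where many genes passed, so no conclusion is drawn from it. Coordinates are from GENCODE release 29, matched by symbol.

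Members and lists were chosen with earlier results of these data known. List genes are named where they are the 4 with the smallest p in knockout against control among those past the threshold, and all 3 atypical IkB genes. Nearest genes are the 3 at the smallest distance. IKBKB, and the markers given by name, were chosen after their values were seen. List genes outside the table were not analysed here. Alternatives were a pseudocount of 0.1, no filter, a mean of at least 5, median ratio scaling, quantile normalization, no trend, a fit of only the 2 groups compared, a replicate block, and leaving out each library in turn. Figures and tables were made with matplotlib 3.10.9, pandas 2.3.3, numpy 2.4.6 and Python 3.11.15.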

Additional observations from a re-analysis of the deposited data

How the results depend on the processing

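Under all 8 alternatives that kept every library, the number of members risen in knockout stayed at 6, and the number fallen in rescue against knockout was 5 or 6. Leaving out 1 library gave 4 to 8 and 4 to 6. RELA, NFKB2 and NFKBIE passed in both comparisons under each of the 14 alternatives, with log2 changes in knockout of 0.47 to 0.63, 0.49 to 0.62 and 0.50 to 0.66, and NFKBIA did so in knockout (0.47 to 0.68). No call changed sign. The signs that turned belonged to changes that did not pass under any setting. In rescue against knockout, leaving out 1 library moved NFKB1 between -0.0613 and 0.00739 and RELB between -0.0459 and 0.0146, and quantile normalization put RELB at 0.0203. In rescue against control, median ratio scaling turned REL (-0.0189), NFKBIB (-0.00492), NFKBIE (-0.0298), TNFAIP3 (-0.00137) and TNIP1 (-0.0178), and quantile normalization turned REL (-0.0109), NFKBIB (-0.00164), NFKBIE (-0.016) and TNIP1 (-0.0156). Leaving out 1 library moved REL between -0.0305 and 0.121, NFKBIB between -0.0252 and 0.142, NFKBIE between -0.0472 and 0.106, TNFAIP3 between -0.0272 and 0.136, and TNIP1 between -0.0486 and 0.141, with the lowest value of each without control replicate 2. The cause was not tested. RELB was not tested with a mean of at least 5.

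Over all genes, median ratio scaling gave 3225 fallen genes in knockout and quantile normalization 3187, against 1723 in the values as deposited. Leaving out 1 library gave 2065 to 4127 risen and 1182 to 2257 fallen genes there, and 1154 to 2492 risen and 1119 to 2538 fallen in rescue against knockout. Between rescue and control the calls ran from 5 to 299 risen and from 0 to 83 fallen over all alternatives, against 29 and 7. With the replicate block the members counted 6 risen in knockout and 6 fallen in rescue, and 299 genes rose and 83 fell between rescue and control. Same-numbered libraries deviated from their group means with correlations of -0.011 (knockout and control), -0.048 (rescue and control) and 0.10 (rescue and knockout). With 2 libraries per group these values cannot show whether same-numbered libraries shared a culture or a batch. At the estimated depth, RELB in particular would carry a counting error of up to 9.22% if its transcript has a length of 2000 nt.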
